A study of Homo sapiens with 4 samples.

Results

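Replication-dependent histone genes were followed in Kit225, a cell line from a human T cell leukemia that needs IL-2 to grow, after 12 hours with the compound NC1153 or with its vehicle DMSO. The members were all probe sets of the HG-U133 Plus 2.0 array that the platform annotation assigns to a single gene of the HIST1H, HIST2H, HIST3H or HIST4H series, pseudogenes left out. This gave 49 probe sets for 43 genes, of 54613 probe sets tested and of 71 protein-coding cluster histone genes in the RefSeq gene table. Of the 43 genes, 40 lie on chromosome 6 and 3 on chromosome 1. By class there were 7 probe sets for H1, 10 for H2A, 14 for H2B, 9 for H3 and 9 for H4. One group of 2 arrays came from cells given NC1153, known as an inhibitor of the kinase JAK3, and one group of 2 arrays from cells given 0.1% DMSO. All cells were grown with 20 U/ml IL-2 and carried no other treatment by the labels, which give the NC1153 dose as 25 mM, a unit that could not be checked here. Nothing states that replicates came from separate cultures, so the spread behind the p-values may be technical.

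Each nucleosome holds the core histones H2A, H2B, H3 and H4, and linker histone H1 binds where the DNA enters and leaves it. Proliferating cells make most of these proteins in S phase from clustered gene copies whose mRNAs end in a conserved stem-loop in place of a poly(A) tail. The stem-loop binding protein SLBP carries the transcripts through processing, export and translation, and they are degraded quickly when DNA synthesis stops. Some cluster genes also make a polyadenylated form in cells that leave the cycle. The primer used to label the RNA for these arrays is not given in the labels.

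The values are globally scaled signals in arbitrary units. NC1153 replicate 1 stood apart with a scaling factor of 6.681, against 2.967 for NC1153 replicate 2 and 2.881 and 2.656 for the DMSO arrays. The ratio of 3′ to 5′ signal of ACTB was 1.54 and 1.20 with NC1153, against 1.23 and 1.09 with DMSO. The 18 spiked bacterial and phage controls were higher on the NC1153 arrays by a median of 0.42 on the log2 scale. The T cell markers CD2, CD4 and IL2RA had a lowest signal of 1801 on the 4 arrays. The other T cell markers listed, CD3D, CD3E, CD3G, CD5, CD7 and LCK, lay between 6.97 and 175, where the median probe set had 61.8 to 88.6. The 7 markers measured for B, myeloid and erythroid cells had a highest signal of 231. None of these 16 marker genes passed the test by limma, and CD2 and CD4 were lower at an unadjusted p under 0.05. For CD4, 1 of 2 probe sets changed in the opposite direction. The part of these differences in the results was not tested.

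Histone probe sets were mostly higher in NC1153-treated cells than in DMSO-treated cells. Of the 49, 38 (77.6%) had a positive log2 change, against 51.2% of all probe sets tested. The median log2 change was 0.58 for the histones and 0.022 for all probe sets. H4C1, H2AC8, H2BC3 and H2AC25 rose, and no histone probe set fell. A change was called at an adjusted p under 0.05 in limma, so 4 of 49 (8.16%) were called higher, where 1.94% of all probe sets were, and 0 of 49 were called lower, where 1.78% of all were. The members also held no probe set lower at an unadjusted p under 0.05 (7.32% of all), and 13 (26.5%) higher (8.52% of all).

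Both NC1153 arrays lay above both DMSO arrays for 22 histone probe sets (44.9%), where 22.8% of all probe sets did so. Both lay below for 2 (4.08%), where 21.2% did so. These 2 were H2BC21 and the second probe set of H2AC25, chosen for mention after their values were seen. A log2 change above 1 was seen for 16 (32.7%), where 13.1% of all probe sets exceeded it. In bulk RNA, a larger share of cells holding these transcripts and more RNA per cell cannot be told apart.

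**Figure D1:**
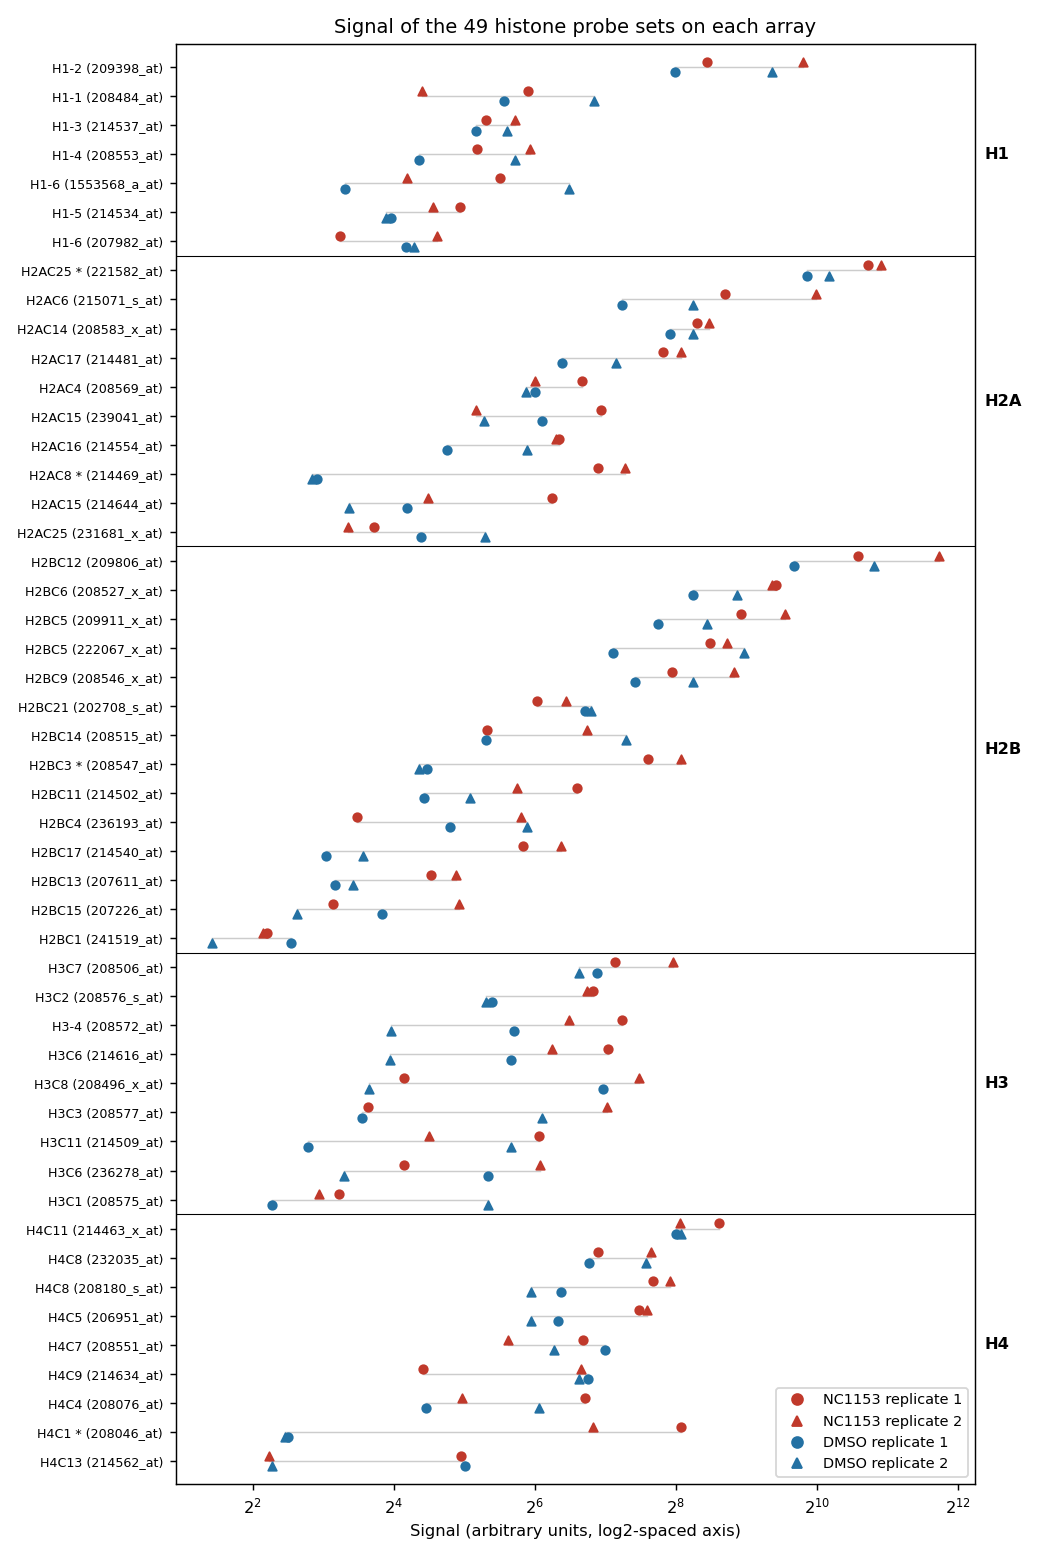
Signal of each of the 49 histone probe sets on the 4 arrays, on a log2-spaced axis, with NC1153 and DMSO replicates as separate symbols and an asterisk where the adjusted p was under 0.05. The NC1153 symbols stand to the right of both DMSO symbols for 22 probe sets and to the left of both for 2.

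H4C1, which encodes the core histone H4, had signals of 269 and 113 in NC1153-treated cells, against 5.68 and 5.52 in DMSO-treated cells. Its log2 change was 4.96 (SE 1.02, adjusted p = 0.0312). The groups were far apart, and the DMSO signals were far below the median of the array.

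H2AC8, an H2A gene of the large cluster on chromosome 6, had signals of 120 and 156 in NC1153-treated cells, against 7.54 and 7.16 in DMSO-treated cells. Its log2 change was 4.21 (SE 0.98, adjusted p = 0.0498), which lies next to the threshold. It was the only member in the authors' deposited table of 2252 probe sets selected from RMA values (RMA is another way to summarise the probes), where its log2 change was 1.13 with a raw p of 0.000671. In the authors' deposited table, its log2 values were 5.79 and 6.15 in NC1153-treated cells, against 4.94 and 4.75 in DMSO-treated cells.

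H2BC3, an H2B gene of the same cluster, had signals of 194 and 268 in NC1153-treated cells, against 22.1 and 20.6 in DMSO-treated cells. Its log2 change was 3.42 (SE 0.65, adjusted p = 0.0233). H2AC25, an H2A gene in the small cluster on chromosome 1, had signals of 1684 and 1914 in NC1153-treated cells, against 931 and 1147 in DMSO-treated cells. Its log2 change was 0.80 (SE 0.17, adjusted p = 0.0378), a 1.74-fold rise, with no overlap between groups. The second probe set of H2AC25 had signals of 13.2 and 10.2 in NC1153-treated cells, against 20.9 and 39.2 in DMSO-treated cells. It did not pass (log2 change -1.30, adjusted p = 0.679), so the 2 probe sets of this gene differed in sign.

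These calls depended on single arrays. Without NC1153 replicate 1 no histone probe set was called, with adjusted p of 0.131 for H4C1, 0.119 for H2AC8, 0.0879 for H2BC3 and 0.0766 for H2AC25. Without NC1153 replicate 2 only H4C1 passed, with adjusted p of 0.0495 for H4C1, 0.121 for H2AC8, 0.116 for H2BC3 and 0.097 for H2AC25. Without DMSO replicate 1, H4C1 and H2BC3 passed, with 0.0517 for H2AC8 and 0.252 for H2AC25. Without DMSO replicate 2, 9 were called, where 2.13% of all probe sets were called higher. The positive direction of these 4 held in each of these fits. With arrays centred on the spiked controls only H4C1 passed (adjusted p = 0.0485). H2AC25 then had a log2 change of 0.37 (adjusted p = 0.530), H2AC8 one of 3.78 (adjusted p = 0.0774) and H2BC3 one of 2.99 (adjusted p = 0.0633).

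Signals as low as those of H4C1, H2AC8 and H2BC3 in DMSO-treated cells carry large error. For Bacillus subtilis RNA only the 12 control probe sets with r2-Bs in their name were read, of 62 controls of all kinds. Their signals ran between 1.07 and 122 with NC1153 and between 1.17 and 90.1 with DMSO. Of these 12, 4 had a log2 change above 1, up to 4.02, and none had one below -1. With 50 added to every signal before the logarithm, the log2 change was 2.04 for H4C1 (adjusted p = 0.0622), 1.70 for H2AC8 (adjusted p = 0.0678) and 1.97 for H2BC3 (adjusted p = 0.0477).

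The promoters of 3 of the 4 called genes were in the RefSeq promoter table (GRCh38.p14), which holds 250 bases before to 50 bases after each start, and are shown because H2A and H2B promoters share an element that other promoters rarely hold. Capitals mark 3 motifs searched on both strands. ATTTGCAT (reverse ATGCAAAT) is the octamer bound by POU2F1, and CCAAT (reverse ATTGG) is bound by NF-Y. TATAAA (reverse TTTATA) has the letters of the TATA box, and its strand and position were not taken into account. H2BC3 lies at chr6:26043664-26043963 on the minus strand, H2AC8 at chr6:26216671-26216970 on the plus strand and H2AC25 at chr1:228457824-228458123 on the minus strand. Each is given 5′ to 3′ on the gene's strand.
H2BC3: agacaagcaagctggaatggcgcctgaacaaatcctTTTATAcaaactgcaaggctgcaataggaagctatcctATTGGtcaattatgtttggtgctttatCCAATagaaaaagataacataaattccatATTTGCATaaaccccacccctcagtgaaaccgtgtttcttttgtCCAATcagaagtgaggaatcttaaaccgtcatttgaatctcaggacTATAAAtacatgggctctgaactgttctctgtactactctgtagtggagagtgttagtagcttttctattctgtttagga
H2AC8: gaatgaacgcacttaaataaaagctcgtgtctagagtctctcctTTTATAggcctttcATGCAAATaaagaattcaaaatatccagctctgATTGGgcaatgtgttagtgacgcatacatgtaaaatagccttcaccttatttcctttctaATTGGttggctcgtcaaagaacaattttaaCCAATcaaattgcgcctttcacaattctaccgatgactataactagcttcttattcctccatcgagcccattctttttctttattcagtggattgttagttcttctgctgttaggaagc
H2AC25: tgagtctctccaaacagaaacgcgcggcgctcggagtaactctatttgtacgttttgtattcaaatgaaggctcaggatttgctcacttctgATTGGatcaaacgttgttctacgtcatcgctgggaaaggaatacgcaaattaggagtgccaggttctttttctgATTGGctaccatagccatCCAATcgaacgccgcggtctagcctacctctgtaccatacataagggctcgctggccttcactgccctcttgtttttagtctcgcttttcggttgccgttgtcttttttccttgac
The H2BC3 and H2AC8 windows each hold the octamer once and CCAAT 3 times, and that of H2AC25 holds CCAAT 3 times without the octamer letters. The single TATAAA match of H2AC8 is the reverse form, on the opposite strand, where H2BC8 starts 233 bases away.

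Over the table, the octamer stood in 1.77% of 35116 promoters, in 75.0% of 20 H2B promoters and in 68.8% of 16 H2A promoters. It stood in 1 of 15 H3 promoters and in none of 6 H1 and 13 H4 promoters. CCAAT was in 34.6% of all promoters, in every H1, H2A, H2B and H3 promoter of the table and in 3 of 13 H4 promoters. TATAAA was in 11.5% of all promoters and in 67.1% of 70 cluster histone promoters. Both strands counted, so a match need not be the TATA box of the named gene. Among H2A and H2B members, the 16 probe sets whose promoter holds the octamer had a median log2 change of 0.87, and the 8 without it had 0.80. A match describes the letters and not a factor at work in these cells.

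**Figure D2:**
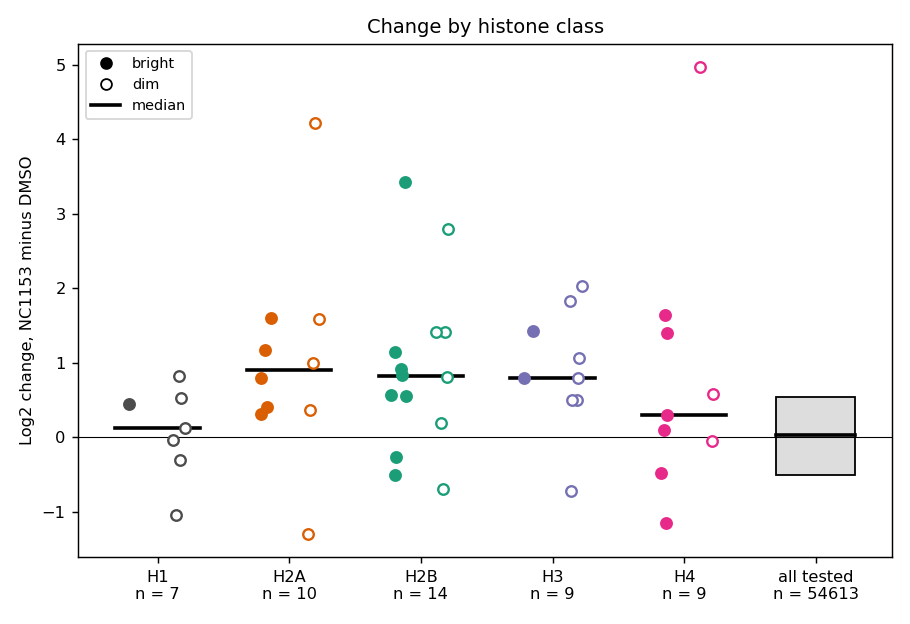
Log2 change (NC1153 minus DMSO) of each histone probe set by class, filled for bright and open for dim ones, with the median as a bar and all tested probe sets at the right. The medians were 0.13 for H1, 0.90 for H2A, 0.82 for H2B, 0.79 for H3 and 0.29 for H4, with wide overlap between the classes.

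By class, H2A had the highest median log2 change at 0.90, followed by H2B at 0.82, H3 at 0.79, H4 at 0.29 and H1 at 0.13. The classes overlapped over most of their range, and differences between them were not tested, since probe sets of a class are not replicates. Beside the members picked by the rule for named genes, some are given to complete a class and were chosen after their values were seen: H2AC6, H2AC17, H2BC5, H2BC17, H2BC21, H4C5, the second probe set of H4C8, H3C3 and H3C8.

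In the H2A class, 9 of 10 log2 changes were positive. Both NC1153 arrays lay above both DMSO arrays for 8 (80%), where 22.8% of all probe sets showed this. H2AC6, one of the cluster genes with a polyadenylated form described in other cells, had signals of 413 and 1012 in NC1153-treated cells, against 151 and 302 in DMSO-treated cells. Its log2 change of 1.60 (SE 0.45) did not pass (adjusted p = 0.0953). H2AC17 had signals of 224 and 268 in NC1153-treated cells, against 83.5 and 142 in DMSO-treated cells, with a log2 change of 1.17 (adjusted p = 0.189). For both genes the groups did not overlap. The members of the class that did not pass had log2 changes from -1.30 to 1.60.

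In the H2B class, 11 of 14 log2 changes were positive. Both NC1153 arrays were higher for 6 (42.9%), where 22.8% of all probe sets showed this. H2BC12 had signals of 1534 and 3385 in NC1153-treated cells, against 818 and 1785 in DMSO-treated cells. The groups overlapped, since both replicate 1 arrays were lower than their replicate 2 counterparts. Within replicate 1 its log2 change was 0.91 and within replicate 2 it was 0.92, and the pooled value of 0.92 (SE 0.40) did not pass (adjusted p = 0.306). With the replicate number as a block it passed (adjusted p = 0.000736).

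H2BC6 had signals of 681 and 658 in NC1153-treated cells, against 303 and 468 in DMSO-treated cells, without overlap (log2 change 0.83, adjusted p = 0.127). H2BC5 had signals of 485 and 745 in NC1153-treated cells, against 215 and 346 in DMSO-treated cells, without overlap (log2 change 1.14, adjusted p = 0.0887). The second probe set of H2BC5 had signals of 357 and 423 in NC1153-treated cells, against 139 and 500 in DMSO-treated cells. Its groups overlapped, and its log2 change of 0.56 (adjusted p = 0.687) was 1.37 within replicate 1 and -0.24 within replicate 2. H2BC17 had signals of 56.9 and 82.9 in NC1153-treated cells, against 8.26 and 11.9 in DMSO-treated cells. Its log2 change of 2.80 (SE 1.05) did not pass (adjusted p = 0.226). H2BC4 (log2 change -0.70, adjusted p = 0.864) and H2BC21 (log2 change -0.51, adjusted p = 0.756) had negative values. H2BC21 had signals of 65.6 and 87.0 in NC1153-treated cells, against 105 and 111 in DMSO-treated cells.

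Several H2A and H2B genes lie head to head, with starts less than 1000 bases apart and a shared stretch of promoter. Both genes of such a pair were measured by members for 4 pairs. H2AC17 and H2BC17, whose starts are 240 bases apart, had log2 changes of 1.17 and 2.80. H2AC15 and H2BC15, 194 bases apart, had 0.36 and 1.59 by the 2 probe sets of H2AC15, and 0.80. In the other two pairs the partners differed in sign, with 1.60 for H2AC6 and -0.70 for H2BC4, and 0.31 for H2AC14 and -0.26 for H2BC14. None of these values passed. H2AC8 has H2BC8 as its neighbour, 233 bases away, which was measured only by probe sets that several genes share.

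In the H3 class, 8 of 9 log2 changes were positive, and none passed by limma, with H3-4 higher at an unadjusted p under 0.05. H3C7 had signals of 140 and 249 in NC1153-treated cells, against 118 and 99.2 in DMSO-treated cells (log2 change 0.79, adjusted p = 0.464). H3C2 had signals of 113 and 107 in NC1153-treated cells, against 42.1 and 39.6 in DMSO-treated cells (log2 change 1.43, adjusted p = 0.338). The groups did not overlap for either gene. H3-4, a testis type H3 gene, had signals of 151 and 90.0 in NC1153-treated cells, against 52.1 and 15.6 in DMSO-treated cells (log2 change 2.03, adjusted p = 0.278). H3C1 had a log2 change of -0.73 (SE 1.31). Dim H3 probe sets varied widely between arrays of a group. H3C3 had signals of 12.4 and 129 in NC1153-treated cells, against 11.7 and 68.8 in DMSO-treated cells. H3C8 had 17.7 and 178 in NC1153-treated cells, against 125 and 12.6 in DMSO-treated cells.

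In the H4 class, 6 of 9 log2 changes were positive. Both NC1153 arrays were higher for 3 (33.3%), where 22.8% of all probe sets showed this. Among the 6 bright H4 probe sets it was 2 (33.3%), close to the 30.0% of all bright probe sets. H4C8 had a probe set with signals of 205 and 242 in NC1153-treated cells, against 82.9 and 61.4 in DMSO-treated cells (log2 change 1.64, SE 0.45, adjusted p = 0.0867). The other probe set of H4C8 had signals of 119 and 201 in NC1153-treated cells, against 109 and 191 in DMSO-treated cells, a log2 change of 0.10. The first separated the groups and the second did not. H4C5 had signals of 179 and 192 in NC1153-treated cells, against 80.2 and 61.5 in DMSO-treated cells (log2 change 1.40, adjusted p = 0.169). H4C11 had a log2 change of 0.29 (adjusted p = 0.737) and H4C9 one of -1.15 (adjusted p = 0.590).

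The linker histones had the smallest median of the 5 classes, with 4 of 7 log2 changes positive. Both NC1153 arrays were higher for 1 (14.3%), where 22.8% of all probe sets showed this. No linker histone passed by limma, and none reached an unadjusted p under 0.05. H1-2 had signals of 346 and 896 in NC1153-treated cells, against 254 and 661 in DMSO-treated cells. Its groups overlapped, and its log2 change was 0.44 (SE 0.50, adjusted p = 0.773). H1-5 had a log2 change of 0.82 (adjusted p = 0.820) and H1-1 one of -1.05 (adjusted p = 0.674). Of the 7 probe sets, 6 lay below the median of all probe sets.

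**Figure D3:**
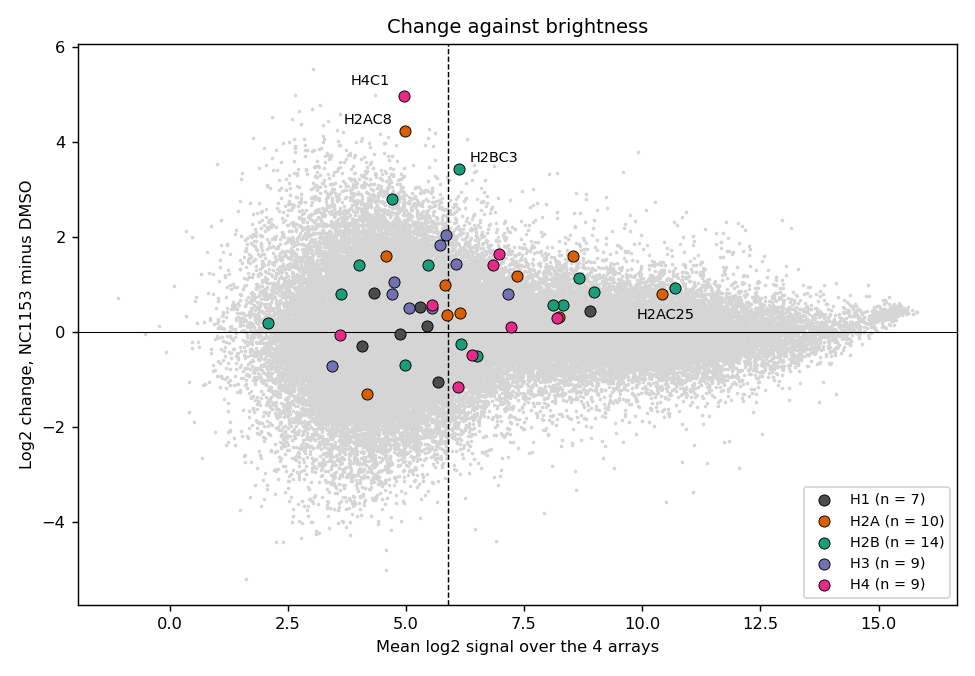
Log2 change (NC1153 minus DMSO) of the 49 histone probe sets against their mean log2 signal over the 4 arrays, coloured by class, over all tested probe sets. Over all probe sets the median change was 0.037 for bright and -0.011 for dim ones, and over the histones it was 0.67 for bright and 0.58 for dim probe sets.

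Bright and dim probe sets were split at the median of all probe sets, a mean signal of 59.0. Of the histones, 22 were bright and 27 dim. Among bright histones 18 of 22 log2 changes were positive (52.7% of all bright probe sets), with a median of 0.67, where all bright probe sets had a median of 0.037. Among dim histones 20 of 27 were positive (49.7% of all dim probe sets), with a median of 0.58, where all dim probe sets had a median of -0.011. The direction was alike on both sides of the split, which was not independent of the change. The difference between the sides was not tested.

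H2BC3 and H2AC25 were called among the 22 bright histones (9.09%), where 3.83% of all bright probe sets were called higher. H2BC3 was bright only through NC1153-treated cells, since its DMSO signals of 22.1 and 20.6 lay below the split. The same held for H3C2, with DMSO signals of 42.1 and 39.6. H4C1 and H2AC8 were called among the 27 dim histones (7.41%), where 0.0623% of all dim probe sets, 17 of 27307, were called higher. H4C1 and H2AC8 were dim only through DMSO-treated cells. Their signals with NC1153, 269 and 113 for H4C1 and 120 and 156 for H2AC8, lay above the split. Both NC1153 arrays were higher for 12 bright histones (54.5%), where 30.0% of all bright probe sets showed this, and for 10 dim histones (37.0%), where 15.6% of all dim probe sets did. A log2 change above 1 was seen for 7 bright histones, where 6.5% of all bright probe sets passed that size, and for 9 dim histones, where 19.7% of all dim probe sets did. Dim probe sets were the noisier ones. The median SD of log2 signal among dim histones was 0.88 between the NC1153 arrays and 0.80 between the DMSO arrays, and among bright histones 0.42 between the NC1153 arrays and 0.38 between the DMSO arrays.

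**Figure D4:**
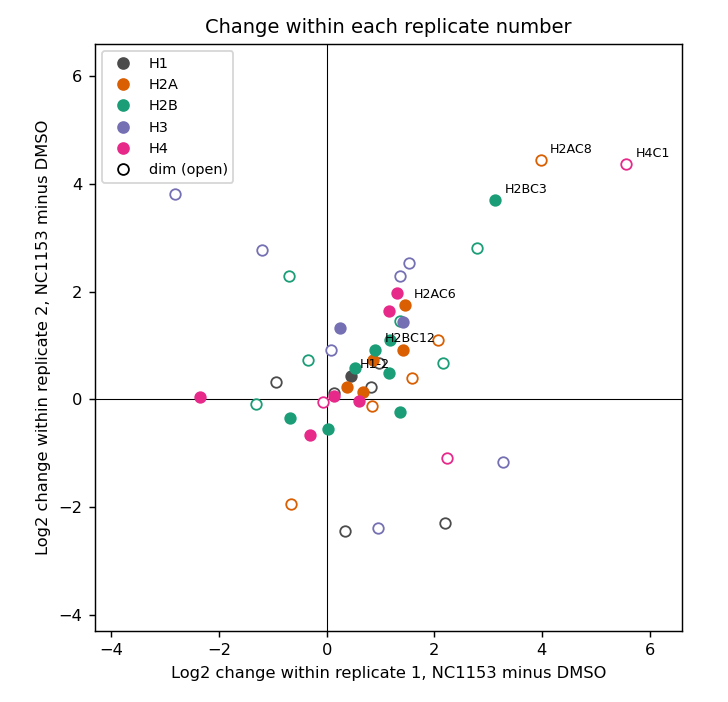
Log2 change of each histone probe set within replicate 1 (horizontal) and within replicate 2 (vertical), NC1153 minus DMSO, filled for bright and open for dim ones. Both values were positive for 29 probe sets and both negative for 5.

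Taken by replicate number, 29 histone probe sets were higher in NC1153-treated cells within both numbers and 5 were lower within both. The median log2 change of the histones was 0.85 within replicate 1, where the median of all probe sets was 0.15, and 0.58 within replicate 2, where it was -0.095. The labels do not say that a number marks a shared batch or day. The column headings of the authors' deposited table name the arrays by a number that is the same for both arrays of a replicate number and differs between replicates, and its meaning is not stated. With the replicate number as a block, 9 histone probe sets were called higher, where 3.77% of all probe sets were. These were the 4 called without it and 5 more, with blocked adjusted p of 0.000360 for H2AC6, 0.000736 for H2BC12, 0.00536 for H2BC5, 0.0368 for H2BC6 and 0.0447 for H4C8. The summed signal of the 49 probe sets was 9608 and 13519 with NC1153, against 5189 and 8111 with DMSO. The lower NC1153 array thus exceeded the higher DMSO array. That lower array was NC1153 replicate 1, with the scaling factor of 6.681. The sums were not corrected for the spiked controls, which were higher on the NC1153 arrays. They rest most on the brightest probe sets, such as that of H2BC12 with 1534 on NC1153 replicate 1.

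Histone coding sequences are close to identical within a class, so a probe set may take up signal from several genes. Of the 49 members, 36 have an identifier ending in _at, 4 in _s_at, 8 in _x_at and 1 in _a_at; _s_at and _x_at mark probes that may match more than a single transcript. The 4 called were all of the plain _at kind. That ending does not show that a probe set reads a single gene. Among the probe sets of several genes given below, the called one and the one of highest signal also end in plain _at. The median log2 change was 0.79 for _at, 1.51 for _s_at and 0.53 for _x_at probe sets. A further 20 probe sets, not members, are annotated with several genes that include cluster histones. Of these 20, 14 were bright, 15 had a positive log2 change and the median was 0.75. Both NC1153 arrays were higher for 12 (60%), where 22.8% of all probe sets and 30.0% of all bright ones showed this. Of the 20, 1 (5%) was called higher, where 1.94% of all probe sets and 3.83% of all bright ones were. This was a probe set shared by H2BC11 and H2BC8, chosen after its value was seen. It had signals of 331 and 334 in NC1153-treated cells, against 61.5 and 90.7 in DMSO-treated cells, with a log2 change of 2.16 (SE 0.40, adjusted p = 0.0201). In the authors' deposited table this probe set had a log2 change of 2.12, another for the same genes 1.25, one shared by 14 H4 genes 0.69 and one shared by H3C4 and H2AC7 0.60. Of the 20, 5 had a negative log2 change. The one of highest signal, chosen after its values were seen, is shared by 14 H4 genes that include H4C1. It had signals of 5599 and 3748 in NC1153-treated cells, against 5166 and 4216 in DMSO-treated cells. Its log2 change was -0.027 (adjusted p = 0.977).

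The 6 member genes with a polyadenylated form described in other cells, H1-2, H2AC6, H2BC4, H2BC5, H2BC12 and H2BC21, had 7 probe sets with a median log2 change of 0.56. The other 42 probe sets had a median of 0.68. Neither the 7 nor the difference was tested apart from the calls above, in which none of the 7 passed by limma and H2AC6, H2BC5 and H2BC12 were each higher by 1 probe set at an unadjusted p under 0.05. The testis type genes H1-6, H2BC1 and H3-4 had 4 probe sets, all dim, with log2 changes from -0.30 to 2.03.

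Genes that make and process histone mRNA moved in both directions. Of 24 listed, 23 were measured, each through the probe set of highest mean signal. ERI1 rose, and CCNE2, SRRT, SLBP and CSTF3 fell, where 3.09% of 19775 genes were called higher and 2.84% lower. The list had a median log2 change of -0.14, and the median of all genes was 0.00202. The list was drawn up with results of these data known and gives no independent evidence.

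ERI1, a 3′ exonuclease that binds the histone stem-loop and takes part in the decay of these mRNAs, had signals of 5672 and 4904 in NC1153-treated cells, against 2218 and 2290 in DMSO-treated cells. Its log2 change was 1.23 (SE 0.14, adjusted p = 0.00308). SLBP had signals of 3638 and 4148 in NC1153-treated cells, against 7386 and 7924 in DMSO-treated cells. It fell by 0.98 on the log2 scale (SE 0.14, adjusted p = 0.00662). For both genes the arrays of each group were close together and the groups far apart. The rise of ERI1 did not pass when arrays were centred on the spiked controls (log2 change 0.80, adjusted p = 0.0743).

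SRRT, which links the cap-binding complex to RNA processing, had signals of 3921 and 3888 in NC1153-treated cells, against 8157 and 8110 in DMSO-treated cells, and fell by 1.06 on the log2 scale (adjusted p = 0.00363). CCNE2, a cyclin E that with CDK2 acts on the histone gene coactivator NPAT, fell by 1.61 (adjusted p = 0.00172). CSTF3, a cleavage factor subunit, fell by 0.78 (adjusted p = 0.0194), a call that was lost on leaving out NC1153 replicate 1, with an adjusted p of 0.0568, or DMSO replicate 2, with 0.113. NPAT itself had signals of 1656 and 1230 in NC1153-treated cells, against 1131 and 1141 in DMSO-treated cells, a log2 change of 0.33 (adjusted p = 0.453). Of the 3 NPAT probe sets, 2 changed in the opposite direction to this one. LSM11 and ZNF473, which serve the U7 snRNP in cutting histone pre-mRNA, had log2 changes of 0.53 (adjusted p = 0.118) and 0.83 (adjusted p = 0.0659), chosen for mention after their values were seen along with NPAT.

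**Figure D5:**
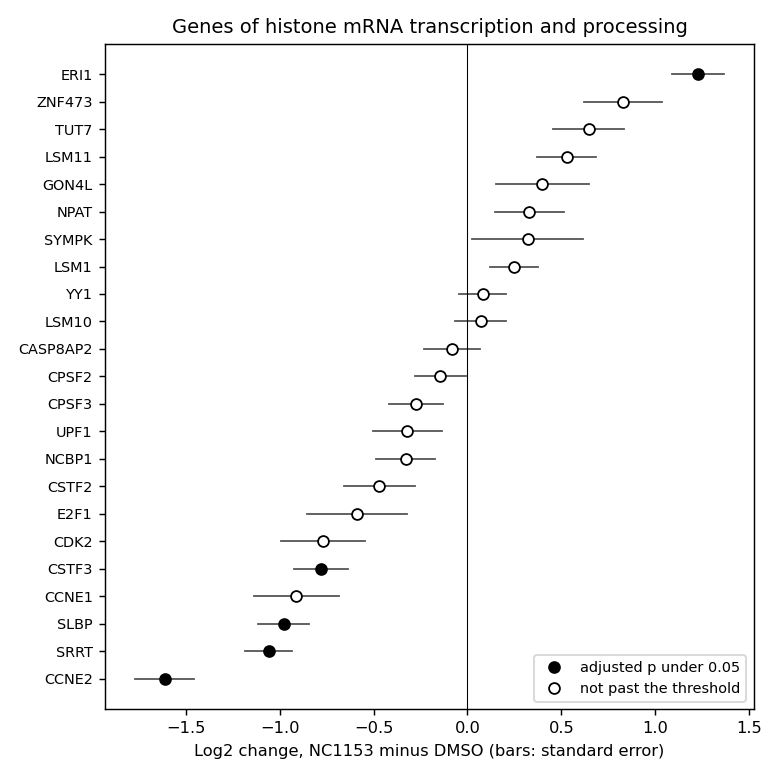
Log2 change (NC1153 minus DMSO) with its standard error for the 23 measured genes of histone mRNA transcription and processing, filled where the adjusted p was under 0.05. ERI1 lies at 1.23, and CSTF3, SLBP, SRRT and CCNE2 lie between -0.78 and -1.61.

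Of 21 measured histone chaperones and import factors, ASF1A rose and SUPT16H, IPO4 and NASP fell, with a list median of -0.25. Of all 19775 genes, 3.09% were called higher and 2.84% lower. All 21 were measured by bright probe sets, of which 3.83% were called higher over the whole array. ASF1A, which hands H3 and H4 to other chaperones, had signals of 10011 and 9681 in NC1153-treated cells, against 6170 and 5730 in DMSO-treated cells (log2 change 0.73, adjusted p = 0.0164). SUPT16H, a subunit of the FACT complex, fell by 0.83 (adjusted p = 0.0113). IPO4, an importin for H3 and H4, fell by 0.79 (adjusted p = 0.0410). NASP, an H3 and H4 chaperone, fell by 0.60 (adjusted p = 0.0420).

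Each of these 4 chaperone calls was lost on leaving out single arrays. Without DMSO replicate 1 the adjusted p was 0.0746 for ASF1A, 0.0606 for SUPT16H, 0.158 for IPO4 and 0.347 for NASP. Without DMSO replicate 2 it was 0.152 for ASF1A, 0.0831 for IPO4 and 0.197 for NASP. It was 0.0684 for NASP without NC1153 replicate 1 and 0.0731 for IPO4 without NC1153 replicate 2. With spike-in centring ASF1A (adjusted p = 0.472) and NASP (adjusted p = 0.0524) did not pass.

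Histone genes outside the clusters, most of which code for variant histones, had a median log2 change of 0.053. Of 9 measured genes 0 passed by limma, with MACROH2A2 lower at an unadjusted p under 0.05. H2AZ1, a variant H2A, had signals of 31840 and 31486 in NC1153-treated cells, against 31093 and 29976 in DMSO-treated cells, a log2 change of 0.053 (adjusted p = 0.920). MACROH2A1, another variant, had a log2 change of -0.064 (adjusted p = 0.896), and 4 of its 7 probe sets changed in the opposite direction.

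Among 17 DNA replication genes MCM5 rose and 9 fell, where 3.09% of all genes were called higher and 2.84% lower. The list had a median log2 change of -0.66, opposite in sign to that of the histones. The largest falls were 1.47 for MCM7, a subunit of the replicative helicase (adjusted p = 0.00166), 1.44 for UHRF1, which maintains DNA methylation (adjusted p = 0.00134), 1.28 for FEN1, a flap endonuclease (adjusted p = 0.00459), and 1.01 for MCM4 (adjusted p = 0.00509). Leaving out DMSO replicate 1 left 6 falls, with adjusted p of 0.0524 for PCNA, 0.243 for RRM2 and 0.0858 for POLA1. Leaving out DMSO replicate 2 also left 6, with 0.0547 for MCM3, 0.248 for RRM2 and 0.161 for POLA1. POLA1 was lost without NC1153 replicate 1 too (adjusted p = 0.0920). With no trend in the prior variance, or with median centring, none of the 17 passed in limma. Of 12 G2/M genes HMMR, KIF23 and TTK rose, where 3.09% of all genes were called higher. These 3 rose by 0.77 (adjusted p = 0.0171), 0.76 (adjusted p = 0.0416) and 0.74 (adjusted p = 0.0169), in that order. The list median was 0.38. Without DMSO replicate 1 the adjusted p was 0.111 for MCM5, 0.0569 for HMMR, 0.169 for KIF23 and 0.131 for TTK. Without DMSO replicate 2 HMMR (0.101) and TTK (0.050003) did not pass, and without NC1153 replicate 1 KIF23 did not (0.123). With spike-in centring MCM5 did not pass (adjusted p = 0.380), the G2/M median was -0.046 and none of the 3 passed. In that setting the histone median was 0.14, where the median of all probe sets was -0.41.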

How the data were processed

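RNA of 2 NC1153 and 2 DMSO samples was hybridised to HG-U133 Plus 2.0 arrays, and samples were grouped by title. The deposited values are linear signals for the whole array. Their trimmed means are nearly equal between arrays, as global scaling gives, and the software behind them is not given in the sources used here. The scaling factors were copied from the authors' deposited table, which also holds log2 RMA values and p-values of 2252 selected probe sets, per the file headers, and served only as a comparison.

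The log2 signal of 54613 probe sets, controls left out, entered limma (3.58.1, under R 4.3.3), with lmFit followed by eBayes and a trend in the prior variance. Differences are NC1153 minus DMSO. Tests were two-sided with Benjamini-Hochberg adjustment over all of them and a threshold of 0.05. The fit of all 4 arrays without a block had 2 residual and 7.27 prior degrees of freedom. Fits with the replicate block or with an array left out had fewer residual degrees of freedom, and each had its own prior. An exact permutation test of 2 against 2 arrays cannot go below 0.333 and was not used. Precision is limited by the number of arrays.

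Symbols come from the platform annotation, updated through an NCBI RefSeq table (GRCh38.p14), in which 66 of 71 cluster histone genes had 70 promoters in all, some with several starts. The promoter of H4C1 was not used here. Summaries and figures were made in Python 3.11.15.

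Named histones are those past the threshold, the 2 with the highest mean signal, the largest rise and the largest fall of each class, and those in the authors' deposited table. From the other lists up to 4 past the threshold were named, or 2 where none passed. CSTF3, MCM3, MCM5, PCNA, POLA1, RRM2 and MACROH2A2 lie outside this rule and were named after their values were seen. Members and lists were chosen with earlier results of these data known. Alternatives were another prior variance, 4 scalings or offsets, leaving out dim or _s_at and _x_at probe sets, 1 probe set per gene, a replicate block and leaving out each array.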

Additional observations from a re-analysis of the deposited data

How the results depend on the processing

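The number of histone probe sets called higher was 4. It was 0 with no trend in the prior variance (8 at an unadjusted p under 0.05), 0 with median centring (9 unadjusted), 1 with spike-in centring, 2 with log2(signal + 50), and 0 to 9 on leaving out single arrays. With the replicate number as a block it was 9. Deviations of same-numbered arrays correlated at 0.055 over all probe sets and 0.12 over bright ones, and the labels do not state a pairing. No alternative called a histone lower. The histone median was 0.14 with spike-in centring, 0.29 with log2(signal + 50), 0.79 without _s_at and _x_at probe sets, and 0.52 to 0.97 on leaving out arrays. The bright median was 0.24 with spike-in centring and 0.41 to 1.05 on leaving out arrays. The dim median was 0.14, 0.25 and 0.79 under the first 3 of these settings and 0.70 to 1.01 on leaving out arrays. Processing genes called higher were 0 with no trend, median centring or spike-in centring, 3 without dim probe sets and 2 with the block. Those called lower were 0 with no trend or median centring, as were the chaperone, DNA replication and G2/M genes called in either direction. Over all probe sets no trend called 0, and median centring 23 higher and 24 lower. Signs turned only for values that did not pass. On leaving out arrays H1-2 ran between -0.25 and 1.13, H2BC4 between -1.86 and 0.47, H3C1 between -2.25 and 0.80, and the _at probe set of H4C8 between -0.31 and 0.51. That probe set was -0.057 with quantile normalization and -0.33 with spike-in centring, and H4C11 was -0.14 with spike-in centring. H1-2 was negative without NC1153 replicate 2 (-0.24) or without DMSO replicate 1. The cause of these shifts was not tested. Signals near those of the Bacillus subtilis controls that were read limit what the dim probe sets can show.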
